A study of Drosophila melanogaster with 62 samples.

Results

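The 8 genes described here code for enzymes that make glucose, make and split trehalose, and build and break down glycogen in the larval fat body of *Drosophila melanogaster*. They were taken by gene symbol or CG number from a list chosen with earlier results of these data known. They are 8 of the 14659 genes in the deposited expression table. Their rows are *Pepck* (CG17725), *Pepck2* (CG10924), *fbp* (CG31692), *Tps1* (CG4104), *GlyS* (CG6904), *GlyP* (CG7254), *AGBE* (CG33138) and *Treh* (CG9364). The Release 6 annotation places *Pepck*, *Pepck2*, *AGBE* and *Treh* on chromosome arm 2R, *fbp*, *Tps1* and *GlyP* on arm 2L, and *GlyS* on arm 3R.

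The fat body is the insect organ that does the metabolic work of both liver and adipose tissue. Gluconeogenesis turns oxaloacetate into phosphoenolpyruvate and then, through fructose bisphosphate, into hexose phosphate, which the fat body can release as trehalose, the main sugar of insect blood, or store as glycogen. In fasted animals hormones drive glycogen breakdown and trehalose release, and insulin signalling and the transcription factor FOXO are known to act on several of these genes.

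The study asked how dietary sucrose changes fat body gene expression and how knockdown of single transcription factors in the fat body alters it. Total RNA depleted of ribosomal RNA was sequenced from wandering larvae, at the end of larval life, grown on semi-defined food. The table holds 61 libraries in 18 groups and 4 experiments, each with its own driver, control stock or sex, and the experiments are never compared with each other here. RNA interference (RNAi) was driven by the GAL4/UAS system, and every animal, the controls included, also carried UAS-Dcr2, which raises the processing of double-stranded RNA.

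In cg males, Tfb1 RNAi (stock 12580) at 1.0 M and 0.15 M sucrose stood against control (stock w1118) at both concentrations, with 3 libraries a group and the fat body dissected by hand. In cg females, the w1118 control was grown on 0.7 M and 0.15 M sucrose, with 3 libraries a group. In r4 w1118 females, the control was grown on 0.15, 0.3, 0.7 and 1.0 M sucrose, with 3 libraries a group. In r4 60100 females, FOXO RNAi (stock 106097), p53 RNAi (stock 103001), Stat92E RNAi (stock 106980) and the control (stock 60100) were grown on 0.7 M and 0.15 M sucrose, with 4 libraries a group except p53 RNAi at 0.15 M, for which 3 of the 4 labelled samples have a column. Female fat body was floated, that is, sheared free and separated by centrifugation. Both cg-GAL4 and r4-GAL4 are fat body drivers, and cg-GAL4 is also active in blood cells. Each knockdown used 1 RNAi stock, and the male experiment differs from the others in sex and extraction together. Headings of the male columns carry other driver names than the labels, and the labels were followed. The p53 RNAi columns at 0.15 M have headings in the style of the male columns, unlike the other r4 60100 columns. Whether those libraries were handled apart from their control is not recorded.

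Values are FPKM (fragments per kilobase of transcript, relative to library size) that had been scaled so that the same number of genes reached 1 in every library of an experiment, within 1 gene, and they are called scaled FPKM. They are relative levels within an experiment, per transcript length, so genes can be set side by side within a library. The estimated number of fragments that 1 scaled FPKM stands for in 1 kb of transcript was 6.31 to 10 in cg females, 3.98 to 15.8 in r4 w1118 females, 3.16 to 10 in cg males and 7.94 to 31.6 in r4 60100 females. By that estimate *Pepck* rested on 1300 to 8200 fragments in r4 60100 females, and *AGBE* in cg males on 3.1 to 48. The 8 fat body markers (storage proteins, lipophorin and transferrin) were all present in every group, with summed levels from 1620 to 15000 scaled FPKM per library. Salivary gland secretion genes were also high in cg males, at 1200 to 3240 summed over 9 genes. The targeted gene's mean was 57% and 73.4% of control for Tfb1, 56.9% and 65% for foxo, 71.6% and 62.2% for p53 and 16.5% and 23.8% for Stat92E, at 0.15 M and at high sugar in turn. Exact two-sided permutation gave p between 0.029 and 0.17, or 0.058 to 0.17 adjusted over the 8 tests. All of those means lay below 1 scaled FPKM except that of Stat92E in control at 0.15 M (2.68).

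A difference is given as log2 change ± SE of scaled FPKM with a pseudocount of 1, which understates the change of low genes. It comes from limma fitted over all genes whose experiment mean reached 1. Benjamini-Hochberg adjustment of p-values ran over those same genes, and a gene was called, and is said to have risen or fallen, at an adjusted p under 0.05. The labels do not say that libraries came from separate sets of animals, so p-values measure the spread between libraries. The tissue was measured in bulk, in which fewer cells of a type and less RNA per cell cannot be told apart. Of the 8 genes, 7 passed the filter in each experiment: *GlyS* lay below it in cg males, cg females and r4 w1118 females, and *Treh* in r4 60100 females.

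*Pepck*, the cytosolic type of phosphoenolpyruvate carboxykinase that commits oxaloacetate to glucose, was the most abundant of the 8 in the mean of every experiment. Its levels ran from 22 to 99.4 scaled FPKM in cg females, 43.2 to 100 in r4 w1118 females, 10 to 38.9 in cg males and 33.8 to 166 in r4 60100 females. *GlyS*, glycogen synthase, was the least abundant in 3 experiments, and its highest library held 1.41 scaled FPKM. *Treh*, the enzyme that splits trehalose, was lowest in r4 60100 females, at 0.46 to 1.53 scaled FPKM.

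In cg females grown on 0.7 M sucrose, all 7 genes tested rose against 0.15 M, in a comparison in which 39.7% of all genes were called, 27.5% higher and 12.3% lower. *AGBE* and *Treh* passed the filter only through their 0.7 M libraries, so that a rise was built into their being tested, and without them 5 of 5 rose. The median log2 change of the 7 was 1.08, the value of *AGBE* itself, against 0.15 over all genes tested. Changes of the 5 without *AGBE* and *Treh* ran from 0.79 to 1.45.

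*Pepck* had 87.3, 99.4 and 85.3 scaled FPKM at 0.7 M and 42.1, 37 and 22 at 0.15 M in cg females. It rose by 1.45 ± 0.24 (adjusted p = 0.0048, limma), and no library of one diet reached the other. *Pepck2*, the second phosphoenolpyruvate carboxykinase gene, had 13.1, 19.9 and 14.9 scaled FPKM at 0.7 M, against 9.99, 9.08 and 5.25 at 0.15 M. It rose by 0.92 ± 0.25 (adjusted p = 0.03), also without overlap, but the call was lost without the second 0.15 M library (adjusted p = 0.059) or without the second or the third 0.7 M library (0.081 and 0.066). *fbp*, fructose-1,6-bisphosphatase, which removes a phosphate on the way back to glucose, had 8.91, 11.1 and 9.3 scaled FPKM at 0.7 M, against 3.35, 3.06 and 3.67 at 0.15 M. It rose by 1.3 ± 0.12 (adjusted p = 0.00056) and its 0.15 M libraries lay close together.

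*Tps1*, which joins glucose units into trehalose-6-phosphate, had 12.1, 14.4 and 10.9 scaled FPKM at 0.7 M, against 5.03, 3.95 and 2.97 at 0.15 M in cg females. It rose by 1.45 ± 0.18 (adjusted p = 0.0016), as much as *Pepck*. *Treh* had 1.58, 1.29 and 1.43 at 0.7 M, against 0.903, 0.874 and 0.927 at 0.15 M. This smaller rise, 0.36 ± 0.09 (adjusted p = 0.026), lost its call when any 1 of 4 of the 6 libraries was left out: the first or the second at 0.15 M (adjusted p = 0.06 and 0.087) and the first or the third at 0.7 M (0.081 and 0.072). It was also lost with the replicate number as a block (adjusted p = 0.062).

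Of the glycogen genes in cg females, *AGBE*, the branching enzyme, had 3.28, 3.18 and 2.75 scaled FPKM at 0.7 M, against 1.05, 0.877 and 0.841 at 0.15 M, and rose by 1.08 ± 0.10 (adjusted p = 0.00056). *GlyP*, glycogen phosphorylase, which releases glucose units from glycogen, had 2.67, 2.79 and 2.65 at 0.7 M, against 1.4, 1.08 and 0.954 at 0.15 M, and rose by 0.79 ± 0.10 (adjusted p = 0.002). *GlyS* had 0.762, 0.562 and 0.653 at 0.7 M, against 0.43, 0.527 and 0.538 at 0.15 M. Its groups did not overlap, and the exact permutation p of 0.1 is the smallest that 3 against 3 libraries allow. The mean ratio of *GlyP* to *GlyS* was 4.17 ± 0.736 at 0.7 M and 2.36 ± 0.789 at 0.15 M (SD, n = 3 each).

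**Figure D1:**
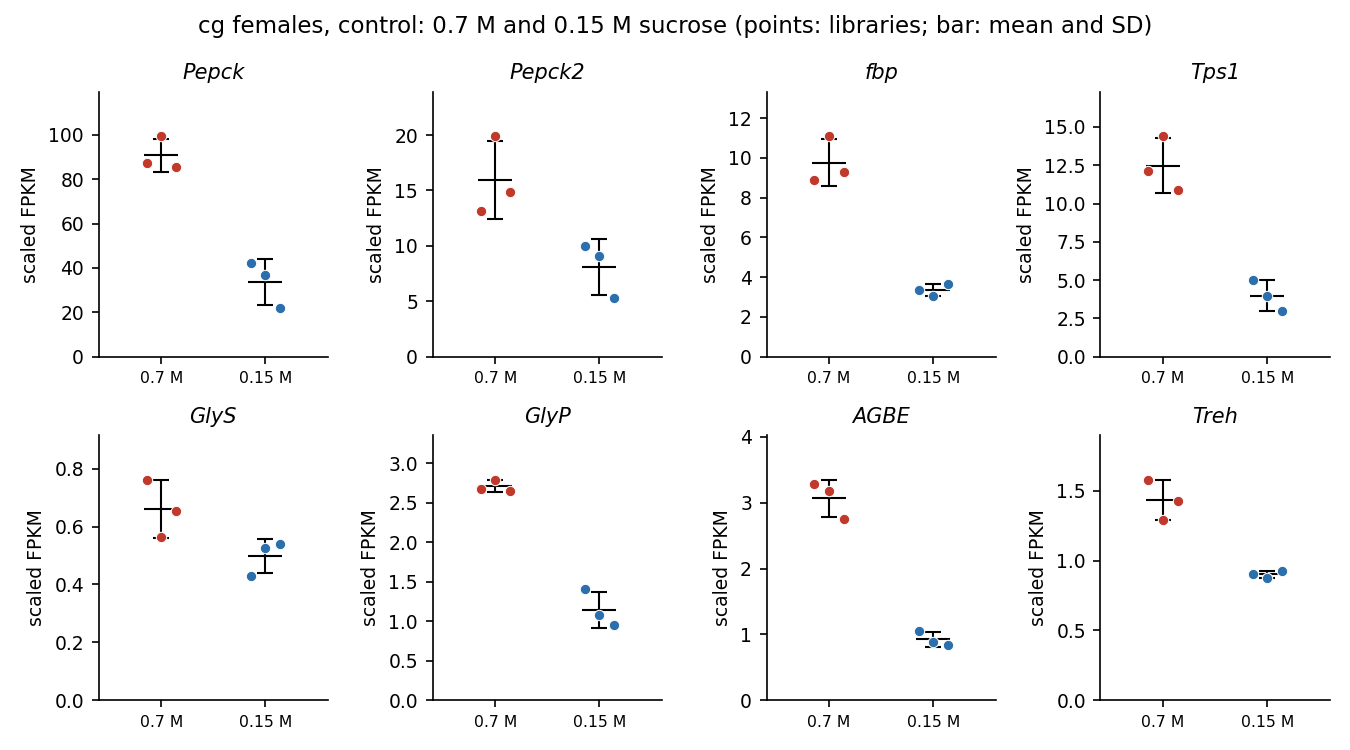
Scaled FPKM (vertical axis, from 0) of the 8 enzyme genes in cg females at 0.7 M and 0.15 M sucrose; points are the 3 libraries a group and bars the mean and SD. In each panel the 0.7 M libraries lie above the 0.15 M libraries, and *GlyS* shows the smallest distance.

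Other genes of the same routes were also called in cg females. Of 26 further pathway genes, 15 were tested, 8 rose and 1 fell. The largest rises were those of CG1516 (pyruvate carboxylase, 1.69), *Pgi* (glucose-6-phosphate isomerase, 1.47), *AkhR* (the receptor of adipokinetic hormone, 1.39) and *Mdh2* (malate dehydrogenase, 1.1), all as log2 changes. Marker genes moved too. Fat body markers rose for 4 of 8, with summed levels of 10500 to 12200 scaled FPKM at 0.7 M and 5270 to 7170 at 0.15 M. Hemocyte markers fell for 5 of 5 tested, with sums of 1.47 to 2.21 at 0.7 M and 10.7 to 15 at 0.15 M, and CG8193 was at 0 in every 0.7 M library. Gut markers fell for 2 of 6, with sums of 1.76 to 1.93 at 0.7 M and 5.08 to 72.4 at 0.15 M, and 5 of the 11 (*Jon25Bi*, *Jon25Bii*, *Jon99Ci*, *lambdaTry* and *Amy-p*) were at 0 at 0.7 M. With sums that low at 0.7 M, most hemocyte and gut markers tested had passed the filter only through their 0.15 M libraries. A fall was thus built into the testing of those markers. Salivary gland genes fell for 2 of 5, with sums of 5.41 to 18.5 at 0.7 M and 33.3 to 591 at 0.15 M, and *Sgs1*, *ng1*, *ng2* and *ng3* were at 0 at 0.7 M. The single muscle marker tested fell and the single neuron marker was not called. Their part in the result was not tested.

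In r4 w1118 females every call among the 8 genes over the sucrose series was a rise. At 0.3 M, 1 of 7 genes rose against 0.15 M where 7.72% of all genes were called, 6.34% higher and 1.38% lower. That background was 168 genes and ranged from 23 to 422 when 1 library was left out: 46 without the first and 23 without the third 0.15 M library, and 422, 34 and 25 without the first, the second and the third 0.3 M library. At 0.7 M, 1 of 7 rose (14.3% of all genes called, 11.3% higher and 2.94% lower). At 1.0 M, 3 of 7 rose (17.2% called, 12.6% higher and 4.64% lower). On a linear trend over the 4 diets 2 of 7 rose (12.2% called, 7.95% higher and 4.23% lower). *Treh* passed the filter there only through the 1.0 M libraries and was not called, so that 6 genes tested without it give the same counts. The median log2 change of the 7, *Treh* included, was 0.34, 0.48 and 0.48 at 0.3, 0.7 and 1.0 M, against 0.15, 0.15 and 0.08 over all genes.

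*fbp* was called at each higher concentration. Its libraries held 6.16, 6.43 and 6.54 scaled FPKM at 0.15 M, 9.27, 11.2 and 14.4 on 0.3 M food, 8.65, 9.77 and 12.3 on 0.7 M food, and 14.8, 12.9 and 13.7 on 1.0 M food. Every library above 0.15 M exceeded every one at 0.15 M, while the 0.3 M and 0.7 M libraries overlapped. The rises were 0.75 ± 0.17 on 0.3 M food (adjusted p = 0.033), 0.59 ± 0.17 on 0.7 M food (0.04) and 1.00 ± 0.17 on 1.0 M food (0.0025), by limma. The call at 0.3 M was lost without any of the 0.15 M libraries (adjusted p 0.087, 0.051 and 0.087) or the second or the third 0.3 M library (0.089 and 0.13). That at 0.7 M was lost without any of the 0.15 M libraries (0.1, 0.08 and 0.084) or the second or the third 0.7 M library (0.11 and 0.13). That at 1.0 M was not lost.

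*Pepck2* had 8.72, 8.12 and 8.46 scaled FPKM at 0.15 M, 7.08, 8.14 and 10.1 on 0.3 M food, 10.6, 12.4 and 13.5 on 0.7 M food, and 15, 12.5 and 14.5 on 1.0 M food. Its 0.15 M and 0.3 M libraries overlapped, and those at 0.7 M and 1.0 M lay above both. It rose by 0.67 ± 0.15 on 1.0 M food (adjusted p = 0.012), and the change of 0.48 ± 0.15 on 0.7 M food just missed the threshold (adjusted p = 0.053) and passed it after rescaling by median ratios (0.50, adjusted p = 0.044). Its slope was 0.87 ± 0.16 per 1 M of sucrose (adjusted p = 0.004).

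*Tps1* had 6.46, 9.95 and 8.15 scaled FPKM at 0.15 M, 8.72, 11.7 and 16 on 0.3 M food, 10.9, 12.0 and 13.8 on 0.7 M food, and 16.1, 17.9 and 14.1 on 1.0 M food in r4 w1118 females. Only the 0.3 M libraries overlapped those at 0.15 M. It rose by 0.90 ± 0.21 on 1.0 M food (adjusted p = 0.015), a call lost without the first 0.15 M library (adjusted p = 0.07) or the first 1.0 M library (0.051). The change of 0.50 ± 0.21 on 0.3 M food (adjusted p = 0.16) was called without the first 0.3 M library (0.038). Its slope of 0.86 ± 0.25 per 1 M (adjusted p = 0.038) lost its call when any 1 of 9 of the 12 libraries was left out (adjusted p 0.05 to 0.11): all but the second and the third at 0.3 M and the first at 0.7 M.

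*Pepck* had 51, 86.1 and 69.7 scaled FPKM at 0.15 M, 43.2, 52.2 and 63.7 on 0.3 M food, 99.0, 99.6 and 77.3 on 0.7 M food, and 93.2, 100 and 82.5 on 1.0 M food. The 0.15 M libraries overlapped those of all the other diets, and no change was called: −0.36 ± 0.21 on 0.3 M food, 0.43 ± 0.21 on 0.7 M food and 0.44 ± 0.21 on 1.0 M food (adjusted p 0.28, 0.18 and 0.19). The slopes of *Pepck* and *fbp*, 0.80 ± 0.27 and 0.85 ± 0.26 per 1 M, missed the threshold (adjusted p = 0.078 and 0.052). That of *Pepck* was called without the second 0.15 M library (0.029), and that of *fbp* without the second 0.3 M, the third 0.3 M or the first 0.7 M library (0.043, 0.0079 and 0.047).

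The glycogen genes and *Treh* were not called at any concentration in r4 w1118 females. *AGBE* had 3.45, 3.0 and 4.18 scaled FPKM at 0.15 M, 4.91, 6.32 and 10.8 on 0.3 M food, 5.54, 6.86 and 6.9 on 0.7 M food, and 3.31, 7.87 and 2.76 on 1.0 M food. Its 0.3 M and 0.7 M libraries all lay above those at 0.15 M (0.82 ± 0.32, adjusted p = 0.12, and 0.71 ± 0.32, adjusted p = 0.15), whereas at 1.0 M 1 library was high and the others lay within or below the 0.15 M range. *GlyP* ranged from 0.976 to 2.16 at 0.15 M, 1.62 to 2.27 on 0.3 M food, 1.58 to 1.64 on 0.7 M food and 1.39 to 3.26 on 1.0 M food. Its change at 1.0 M was 0.48 ± 0.22 (adjusted p = 0.17), and it was called without the second 1.0 M library (0.036). *GlyS* lay between 0.502 and 1.12 in all 12 libraries. *Treh* ranged from 0.879 to 1.33, with changes of −0.10, −0.02 and 0.08 at 0.3, 0.7 and 1.0 M, each with an SE of 0.10.

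**Figure D2:**
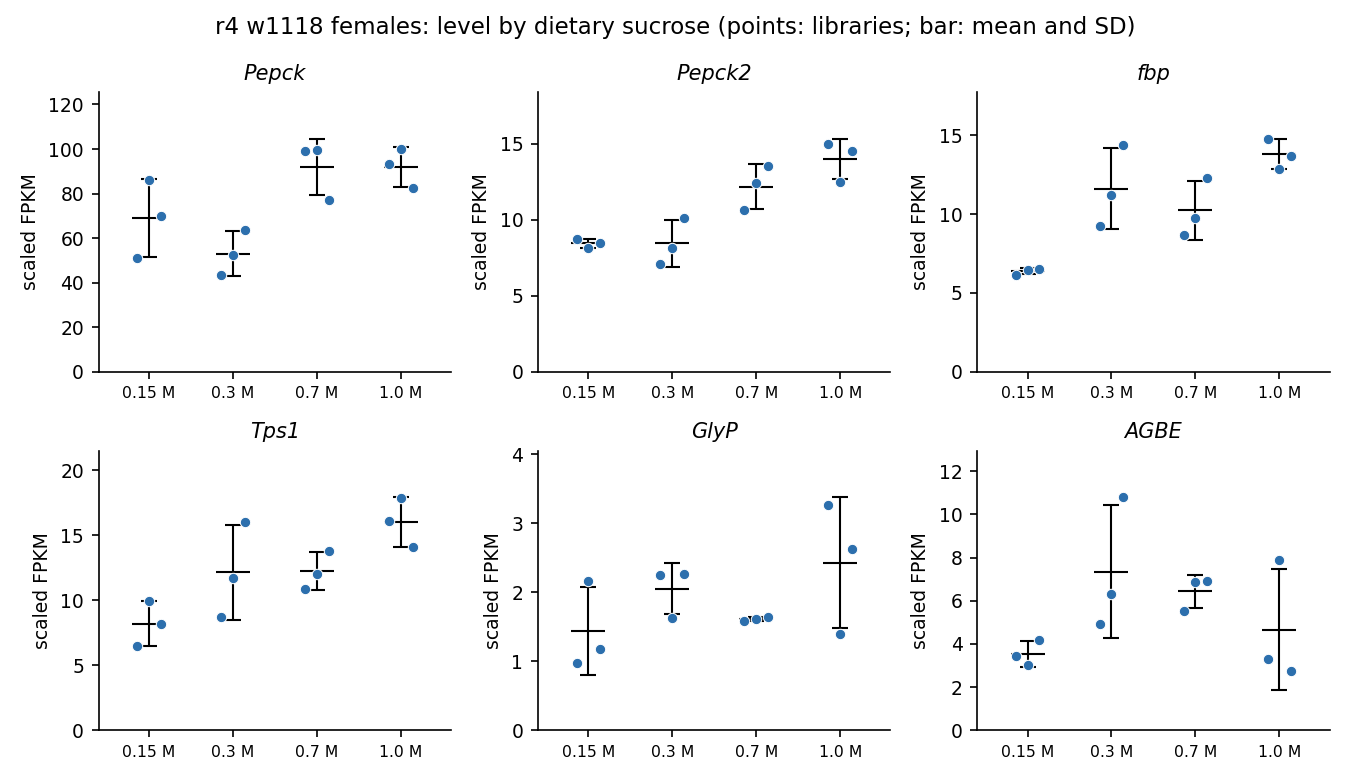
Scaled FPKM (vertical axis, from 0) against dietary sucrose at 0.15, 0.3, 0.7 and 1.0 M in r4 w1118 females for 6 enzyme genes; points are the 3 libraries a diet and bars the mean and SD. *fbp* lies above its 0.15 M libraries at every higher concentration, *Pepck2* at 0.7 and 1.0 M, and *AGBE* has a single high library at 1.0 M.

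Among the pathway genes tested in r4 w1118 females (15), 3 rose at 0.3 M, 2 at 0.7 M, 4 at 1.0 M and 3 on the trend, and none fell in those 4 limma tests. At 1.0 M they were CG1516 (1.18), *Pgi* (1.05), *AkhR* (0.95) and *Tret1-1* (a trehalose transporter, 0.70). *Pgi* and *AkhR* were also called at 0.3 M (0.97 and 0.52) and at 0.7 M (0.91 and 0.92). Gut markers fell in the same comparisons, for 4, 5 and 5 of 7 tested at 0.3, 0.7 and 1.0 M. Their sums were 57.2 to 147 scaled FPKM at 0.15 M, 18.1 to 52.5 on 0.3 M food, 2.7 to 5.03 on 0.7 M food and 2.97 to 6.19 on 1.0 M food, and *lambdaTry* was at 0 in every library at 0.15 M as well. With sums that low, the 7 gut markers cannot all have reached 1 at 0.7 M or 1.0 M. Some were thus tested only through their libraries on less sucrose, so that a difference was built into their being tested. Of the other lists, 1 of 2 hemocyte markers fell at 0.7 and 1.0 M, 1 of 5 muscle markers rose at 0.3 and 0.7 M, and no salivary gland or neuron marker was called. Of fat body markers 2 of 8 fell at 0.7 M, and 2 fell and 1 rose at 1.0 M. Their sums were 9070 to 12400, 11100 to 15000, 8940 to 10500 and 8870 to 9350 from 0.15 to 1.0 M. Their part in the changes of *fbp*, *Pepck2* and *Tps1* was not tested.

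In cg males, 1.0 M sucrose against 0.15 M in the control gave 1 call among 7 genes, with 28.3% of all genes called, 5.37% higher and 22.9% lower. That gene was *AGBE*, with 0.545, 0.402 and 1.06 scaled FPKM at 1.0 M, against 4.17, 2.0 and 3.33 at 0.15 M. It fell by 1.3 on the log2 scale (SE 0.20, adjusted p = 0.00081), with no overlap. *AGBE* passed the filter only through those 0.15 M control libraries, and without the first or the third of them it lay below it. Of the 6 genes that passed without their highest group, 0 were called by limma and 0 had an unadjusted p under 0.05. *Pepck* had 38.9, 23.2 and 27.8 at 1.0 M, against 20.7, 23.1 and 29.5 at 0.15 M, overlapping groups with a change of 0.27 ± 0.19 (adjusted p = 0.31). The other changes were 0.15 ± 0.26 for *Pepck2*, −0.22 ± 0.17 for *fbp*, −0.03 ± 0.19 for *Tps1*, −0.03 ± 0.13 for *GlyP* and −0.13 ± 0.11 for *Treh*.

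Tfb1 is a subunit of the general transcription factor TFIIH, which opens promoters for RNA polymerase II. At 0.15 M sucrose 5 of the 7 genes fell in Tfb1 RNAi males, in a comparison in which 36.2% of all genes were called, 10.4% higher and 25.8% lower. Without *AGBE*, which depends on the control libraries for its test, 4 of 6 fell. The median change of the 7, *AGBE* included, was −0.81, against −0.13 over all genes. Changes of the 6 without *AGBE* ran from −1.32 to −0.15.

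*Pepck* had 10, 11.1 and 11.6 scaled FPKM in Tfb1 RNAi males at 0.15 M, against 20.7, 23.1 and 29.5 in control males. It fell by 1.08 on the log2 scale (SE 0.19, adjusted p = 0.0013, limma), without overlap. *fbp* had 1.68, 2.38 and 2.44 in Tfb1 RNAi males, against 7.49, 6.03 and 7.05 in control males, and fell by 1.32 (SE 0.17, adjusted p = 0.00017). *AGBE* had 0.526, 0.429 and 0.5 in Tfb1 RNAi males, against 4.17, 2.0 and 3.33 in control males, and fell by 1.45 (SE 0.20, adjusted p = 0.00022). These 3 sets of libraries stood well apart.

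*Pepck2* had 3.08, 2.58 and 3.11 scaled FPKM in Tfb1 RNAi males at 0.15 M, against 8.66, 4.15 and 5.59 in control males, and fell by 0.81 (SE 0.26, adjusted p = 0.033). *Tps1* had 1.54, 1.75 and 1.27 in Tfb1 RNAi males, against 3.47, 2.33 and 2.4 in control males, and fell by 0.56 (SE 0.19, adjusted p = 0.038). Neither gene's groups overlapped, but both calls were lost without any 1 of the 6 libraries other than the second control (adjusted p 0.066 to 0.12 for *Pepck2* and 0.052 to 0.13 for *Tps1*), and without the filter on low values (0.079 and 0.087). CG3652, a gene that overlaps *Tps1* in the Release 6 annotation, fell as well (−0.41, adjusted p = 0.017), and reads of overlapping genes could not be told apart if counted without strand. The differences of *GlyP*, whose groups did not overlap, and of *Treh* were −0.25 ± 0.13 and −0.15 ± 0.11 (adjusted p 0.17 and 0.38). *GlyS* had 0.411, 0.366 and 0.568 in Tfb1 RNAi males, against 1.09, 0.986 and 0.811 in control males, with no overlap and the smallest exact p that can be had, 0.1. In the limma fit without the filter on low values it was called lower (−0.44 ± 0.08, adjusted p = 0.0059).

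At 1.0 M sucrose 1 of the 7 genes fell in Tfb1 RNAi males, with 24.1% of all genes called, 12.2% higher and 11.9% lower. *Pepck2* had 3.64, 3.22 and 2.82 scaled FPKM in Tfb1 RNAi males, against 8.62, 4.1 and 8.05 in control males, and fell by 0.86 (SE 0.26, adjusted p = 0.038). The groups did not overlap, but the call was lost without any 1 of the 6 libraries other than the second control (adjusted p 0.066 to 0.12) and without the filter on low values (0.084). *Pepck* had 28.7, 33.6 and 25.9 in Tfb1 RNAi males, against 38.9, 23.2 and 27.8 in control males, and its change was −0.00 ± 0.19. *fbp* had 5.28, 5.08 and 3.63 in Tfb1 RNAi males, against 6.82, 4.43 and 6.13 in control males (−0.26 ± 0.17, adjusted p = 0.3). The remaining changes were −0.15 ± 0.19 for *Tps1*, 0.03 ± 0.13 for *GlyP*, −0.29 ± 0.20 for *AGBE* and −0.01 ± 0.11 for *Treh*.

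Within Tfb1 RNAi males, 2 of 7 genes rose at 1.0 M against 0.15 M, with 14.1% of all genes called, 5.6% higher and 8.49% lower. *Pepck* rose by 1.35 ± 0.19 (adjusted p = 0.00098) and *fbp* by 0.84 ± 0.17 (adjusted p = 0.0084), both without overlap and both still called when any 1 library was left out. The difference between the Tfb1 RNAi effect at 1.0 M and at 0.15 M was called and positive for 3 of 7 genes, with 8.41% of all genes called, 7.12% higher and 1.3% lower. It was 1.08 ± 0.27 for *Pepck* (adjusted p = 0.035), 1.06 ± 0.24 for *fbp* (adjusted p = 0.023) and 1.16 ± 0.28 for *AGBE* (adjusted p = 0.027). Without *AGBE* it was called for 2 of 6. For *Pepck* the call was lost when any 1 of 9 of the 12 libraries was left out, with adjusted p up to 0.093; the others are the first control at each diet and the third Tfb1 RNAi library at 1.0 M. For *fbp* it was lost without 1 of 5 (adjusted p up to 0.067), namely the first and the third control and the first Tfb1 RNAi library at 0.15 M, and the first and the second Tfb1 RNAi library at 1.0 M. For *AGBE* it was lost without 1 of 7 (adjusted p up to 0.077), namely any Tfb1 RNAi library at 0.15 M and the first and the second library of each group at 1.0 M. All 3 were lost without the filter on low values (adjusted p 0.088, 0.061 and 0.068), and that of *AGBE* also with a pseudocount of 0.1 (1.72, adjusted p = 0.078).

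**Figure D3:**
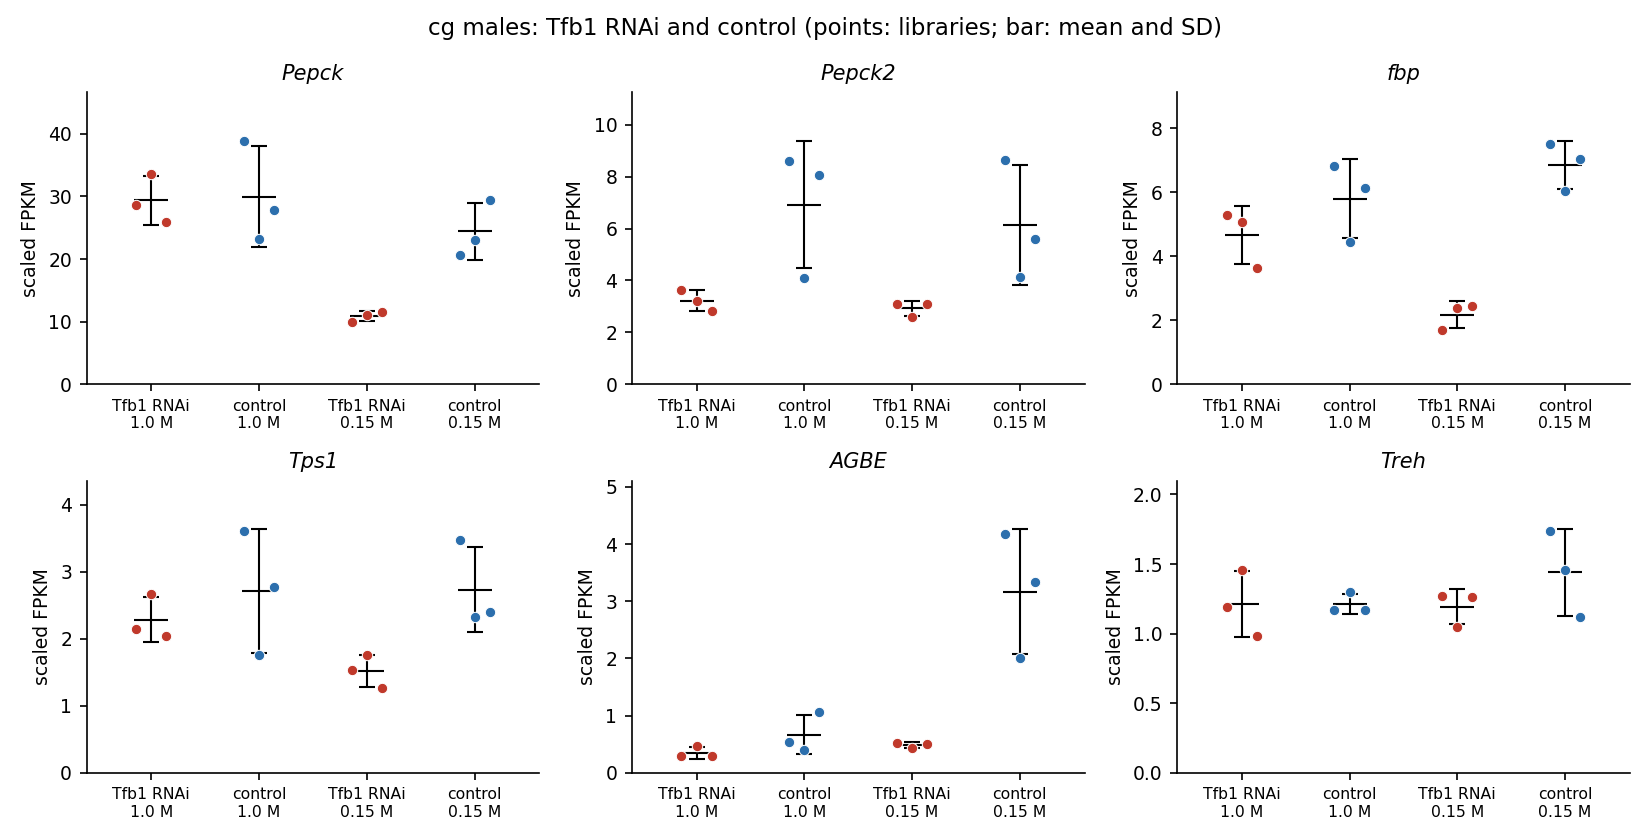
Scaled FPKM (vertical axis, from 0) in cg males for 6 enzyme genes, in the order Tfb1 RNAi and control at 1.0 M, then Tfb1 RNAi and control at 0.15 M sucrose; points are the 3 libraries a group and bars the mean and SD. *Pepck* and *fbp* are low only in Tfb1 RNAi at 0.15 M among these 4 groups, *Pepck2* is low in Tfb1 RNAi on both diets, and *AGBE* is high only in control at 0.15 M.

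Fat body markers fell in the same male comparisons. In Tfb1 RNAi at 0.15 M 7 of 8 fell, with sums of 4610 to 5340 scaled FPKM in Tfb1 RNAi males and 9340 to 11000 in control males. In Tfb1 RNAi at 1.0 M 5 of 8 fell, with sums of 1620 to 2150 in Tfb1 RNAi males and 2820 to 4420 in control males. In control males 7 of 8 fell at 1.0 M against 0.15 M, and in Tfb1 RNAi males 6 of 8. No fat body marker was at 0 in any male group. Hemocyte markers rose for 1 of 2 tested in Tfb1 RNAi at 0.15 M and 2 of 2 at 1.0 M, with sums of 5.78 to 8.27 in Tfb1 RNAi males and 3.36 to 3.59 in control males at 1.0 M. Of 9 salivary gland genes 3 fell in Tfb1 RNAi at 0.15 M, and 5 fell and 3 rose at 1.0 M. Their part in the changes of the 8 genes was not tested. Of the pathway genes, 13 were tested. In Tfb1 RNAi at 0.15 M 9 fell, the largest being *Pgi* (−1.14), *Got2* (−1.1), *Mdh1* (−1.07) and *Got1* (−0.85). At 1.0 M 2 fell, *Pgm* (−0.78) and *Tret1-1* (−0.48). In control males 6 fell at 1.0 M against 0.15 M, the largest being the aspartate aminotransferase gene *Got2* (−2.23) and *Mdh1* (−1.52). In Tfb1 RNAi males at 1.0 M *AkhR* (0.66) and CG1516 (0.58) rose while *Got2* (−0.95) and *Mdh2* (−0.71) fell.

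In r4 60100 females, the library whose column comes second held a value of 1 or more of the 8 genes far from the rest in 6 of the 7 groups of 4, and it was the source of all 9 such values. Results for this experiment are therefore also given without the second-listed library of each group of 4, an alternative chosen after seeing the data. It was chosen on values of these same 8 genes, so it can narrow their spread. FOXO, p53 and Stat92E RNAi share the same control libraries.

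In the r4 60100 control, 1 of 7 genes rose at 0.7 M against 0.15 M, with 31.1% of all genes called, 18.7% higher and 12.4% lower, and without the second-listed libraries 3 of 7 did. Over all genes, 764 were called without those libraries, 452 higher and 312 lower, against 784 with all libraries. *Tps1* had 19.3, 14.3, 22.9 and 13.8 scaled FPKM at 0.7 M, against 11.6, 13.0, 12.7 and 8.34 at 0.15 M. It rose by 0.57 ± 0.18 (adjusted p = 0.018), without overlap, and by 0.72 without the second-listed libraries (0.0035). The call was lost without the fourth 0.15 M library (adjusted p = 0.085) or the first or the third 0.7 M library (0.052 and 0.091). CG3652, which overlaps *Tps1*, moved the other way (−0.28, adjusted p = 0.0084). *AGBE* had 11.8, 12.1, 15.2 and 7.61 at 0.7 M, against 7.16, 10.5, 8.97 and 3.67 at 0.15 M. Its change of 0.61 ± 0.25 (adjusted p = 0.066) was called without the second 0.15 M library (0.03), without the fourth 0.7 M library (0.02), after rescaling (0.73, adjusted p = 0.033) and without the second-listed libraries (0.74, adjusted p = 0.026). The difference of *GlyP* was 0.15 ± 0.15, and 0.34 without the second-listed libraries (adjusted p = 0.027). *Pepck* had 107, 60.7, 96.4 and 124 at 0.7 M, against 100, 166, 99.7 and 104 at 0.15 M, a change of −0.28 ± 0.20 (adjusted p = 0.29) that was 0.10 without the second-listed libraries. *Pepck2* (−0.05 ± 0.15), *fbp* (0.23 ± 0.20) and *GlyS* (0.05 ± 0.08) were not called.

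FOXO is the transcription factor that insulin signalling holds out of the nucleus, and in mammals the PEPCK gene of the liver is among its known targets. At 0.15 M sucrose 4 of the 7 genes, *Pepck*, *Pepck2*, *Tps1* and *GlyP*, fell in FOXO RNAi females, where 17.3% of all genes were called, 6.58% higher and 10.7% lower. The median change of the 7 was −0.48, against 0.02 over all genes. Over all genes, 166 rose and 270 fell, and after rescaling by median ratios 229 rose and 192 fell.

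*Pepck* had 38, 43.2, 33.8 and 44.7 scaled FPKM in FOXO RNAi females at 0.15 M, against 100, 166, 99.7 and 104 in control females. It fell by 1.51 on the log2 scale (SE 0.20, adjusted p = 8.3e-06, limma), to a mean of 39.9 ± 4.99 in FOXO RNAi, against 117 ± 32.1 in control (SD, n = 4 each). *Pepck2* had 6.56, 7.72, 7.47 and 5.65 in FOXO RNAi females, against 14.8, 13.1, 15.6 and 16.3 in control females, and fell by 1.03 (SE 0.15, adjusted p = 5e-05). *Tps1* had 6.39, 5.38, 7.04 and 5.38 in FOXO RNAi females, against 11.6, 13.0, 12.7 and 8.34 in control females, and fell by 0.81 (SE 0.18, adjusted p = 0.0028). None of the 3 genes overlapped between the groups, and all 3 were called when any 1 library was left out and without the second-listed libraries (−1.37, −1.14 and −0.70). CG3652, the gene overlapping *Tps1*, differed by 0.05 ± 0.08.

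*GlyP* had 1.24, 1.63, 1.56 and 1.19 scaled FPKM in FOXO RNAi females at 0.15 M, against 2.47, 2.32, 2.54 and 2.03 in control females, and fell by 0.48 (SE 0.15, adjusted p = 0.033), without overlap. The call was lost without the first, the second or the third control library (adjusted p 0.072, 0.058 and 0.074), without the first or the fourth FOXO RNAi library (0.089 and 0.098), after rescaling (−0.41, adjusted p = 0.068) and without the filter (0.053), and it held without the second-listed libraries (−0.52, adjusted p = 0.0019). *fbp* had 12.2, 7.76, 12.6 and 10.6 in FOXO RNAi females, against 12.8, 9.74, 14 and 11 in control females, and its change was −0.13 ± 0.20. *AGBE* (0.14 ± 0.25) and *GlyS* (−0.06 ± 0.08) overlapped between the groups. *AGBE* was 0.56 without the second-listed libraries (adjusted p = 0.082). *Treh*, below the filter, had 0.652, 0.959, 0.711 and 0.46 in FOXO RNAi females, against 1.09, 1.32, 1.06 and 1.1 in control females. Its groups did not overlap, and the exact permutation p was 0.029, the smallest possible, or 0.13 adjusted over the 18 exact tests made for genes below the filter. In the limma fit without the filter *Treh* was called lower (−0.34 ± 0.09, adjusted p = 0.017). The gene CG4030 overlaps *Treh* in the Release 6 annotation and had a mean of 0.863 ± 0.223 scaled FPKM in FOXO RNAi females and 0.798 ± 0.141 in control females at 0.15 M (SD, n = 4 each), a level like that of *Treh*. Reads of the pair could not be told apart if counted without strand.

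At 0.7 M sucrose 2 of the 7 genes fell in FOXO RNAi females, with 26.8% of all genes called, 9.76% higher and 17.0% lower (246 rose and 429 fell, or 301 and 279 after rescaling). *Pepck2* had 9.99, 5.38, 9.8 and 10 scaled FPKM in FOXO RNAi females, against 15.2, 11.9, 16.6 and 14.4 in control females, and fell by 0.69 (SE 0.15, adjusted p = 0.0013), without overlap. *GlyP* had 1.79, 0.964, 2.05 and 1.42 in FOXO RNAi females, against 3.21, 1.47, 3.72 and 2.84 in control females, and fell by 0.55 (SE 0.15, adjusted p = 0.0083). Its groups overlapped through the second control library, and the call was lost without the second FOXO RNAi library (adjusted p = 0.051). Without the second-listed libraries of both groups the changes were −0.58 for *Pepck2* and −0.63 for *GlyP*, both called.

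*Pepck* was not called at 0.7 M: it had 111, 96.8, 120 and 78.7 scaled FPKM in FOXO RNAi females, against 107, 60.7, 96.4 and 124 in control females, a change of 0.09 ± 0.20 (adjusted p = 0.76), or −0.10 without the second-listed libraries. *fbp* had 12.1, 5.41, 10.1 and 13.9 in FOXO RNAi females, against 13.7, 16.8, 15.7 and 10.6 in control females (−0.46 ± 0.20, adjusted p = 0.091). It was called without the fourth control (0.041) or the fourth FOXO RNAi library (0.027), and was −0.13 without the second-listed libraries. *Tps1* had 14, 8.97, 14 and 14.3 in FOXO RNAi females, against 19.3, 14.3, 22.9 and 13.8 in control females (−0.42 ± 0.18, adjusted p = 0.084), and was called without the fourth control library (0.045). *AGBE* (−0.17 ± 0.25) and *GlyS* (0.02 ± 0.08) were not called, and *Treh* was 0.472 to 0.637 in FOXO RNAi females and 0.613 to 1.19 in control females (exact p = 0.057, adjusted 0.2), and was called lower without the filter (−0.30 ± 0.09, adjusted p = 0.025).

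Within FOXO RNAi females, 2 of 7 genes rose at 0.7 M against 0.15 M, with 38.6% of all genes called, 17.9% higher and 20.7% lower (64.6% of the called ones higher after rescaling, 46.4% before). *Pepck* rose by 1.32 ± 0.20 (adjusted p = 1.1e-05) and *Tps1* by 0.96 ± 0.18 (adjusted p = 0.00014), both without overlap, and by 1.38 and 1.06 without the second-listed libraries. The difference of *Pepck2* was 0.29 ± 0.15 (adjusted p = 0.14), and it was called without the second 0.7 M library (0.0055), after rescaling (0.43, adjusted p = 0.037) and without the second-listed libraries (0.54, adjusted p = 0.0023). The FOXO RNAi effect differed between diets for 1 of 7 genes, with 13.6% of all genes called, 6.11% higher and 7.54% lower. That was *Pepck*, at 1.60 ± 0.28 (adjusted p = 0.00055), between 1.39 and 1.74 when any 1 library was left out, and 1.28 without the second-listed libraries (adjusted p = 0.00058). For *Pepck2* and *Tps1* the differences between diets were 0.34 ± 0.22 and 0.39 ± 0.25 (adjusted p = 0.29 each). In FOXO RNAi females the mean ratio of *Pepck* to *Pepck2* was 12.3 ± 4.23 at 0.7 M and 5.95 ± 1.42 at 0.15 M, and in control females 6.65 ± 1.56 at 0.7 M and 8.05 ± 3.07 at 0.15 M (SD, n = 4 each).

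**Figure D4:**
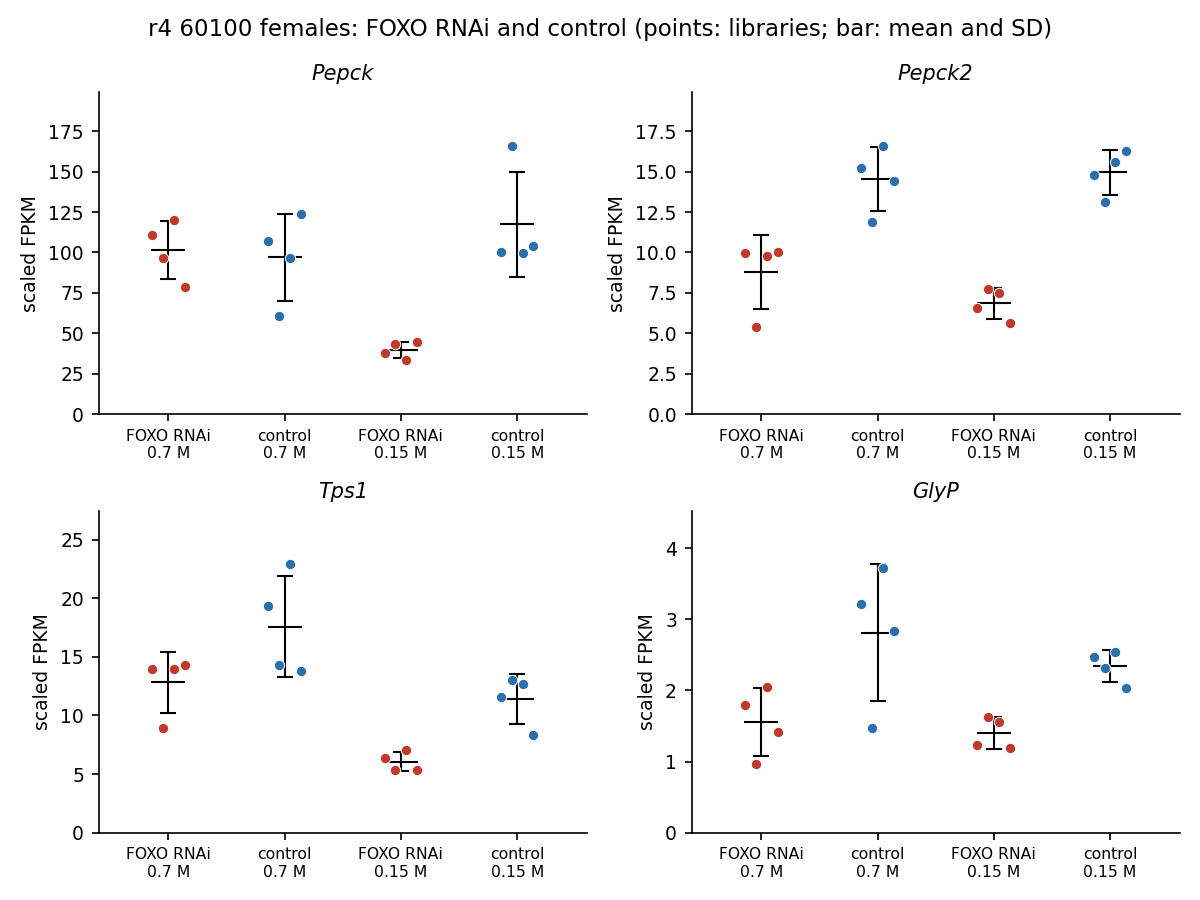
Scaled FPKM (vertical axis, from 0) of *Pepck*, *Pepck2*, *Tps1* and *GlyP* in r4 60100 females, in the order FOXO RNAi and control at 0.7 M, then FOXO RNAi and control at 0.15 M sucrose; points are the 4 libraries a group and bars the mean and SD. *Pepck* is at 33.8 to 44.7 only in FOXO RNAi at 0.15 M among these 4 groups, whereas *Pepck2* is low in FOXO RNAi on both diets.

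Marker lists moved in the FOXO comparisons as well. Fat body markers fell for 6 of 8 at 0.15 M, with sums of 7770 to 9580 scaled FPKM in FOXO RNAi females and 13900 to 14900 in control females. At 0.7 M they fell for 5 of 8, with sums of 6460 to 7780 in FOXO RNAi females and 9440 to 13100 in control females. Gut markers rose for 4 of 8 at 0.15 M (103 to 376 in FOXO RNAi, 4.69 to 114 in control) and fell for 3 of 8 at 0.7 M (35.9 to 66 in FOXO RNAi, 53 to 129 in control), and *lambdaTry* was at 0 in all 4 groups. Salivary gland genes fell for 5 of 6 at 0.15 M, with sums of 88.1 to 133 in FOXO RNAi and 156 to 562 in control, where *ng1*, *ng2* and *ng3* were at 0. Muscle markers rose for 7 of 8 at 0.7 M against 0.15 M in the control (25.2 to 77.1 at 0.7 M, 13.7 to 21.4 at 0.15 M) and for 7 of 8 in FOXO RNAi (32.7 to 60.3 at 0.7 M, 9.95 to 19.3 at 0.15 M). In that control comparison, in which *Tps1* rose, 4 of 8 fat body markers fell and 1 rose (9440 to 13100 at 0.7 M, 13900 to 14900 at 0.15 M). Gut markers rose for 3 of 8 there (53 to 129 at 0.7 M, 4.69 to 114 at 0.15 M) and salivary gland genes for 1 of 6 (383 to 751 at 0.7 M, 156 to 562 at 0.15 M). *Jon99Ci* was at 0 at 0.15 M, and *He* was at 0 on both diets. In the FOXO RNAi diet comparison, in which *Pepck* and *Tps1* rose, 5 of 8 fat body markers fell and 1 rose (6460 to 7780 at 0.7 M, 7770 to 9580 at 0.15 M). Salivary gland genes rose for 5 of 6 there (104 to 652 at 0.7 M, 88.1 to 133 at 0.15 M), hemocyte markers for 1 of 2, and of 8 gut markers 2 rose and 3 fell (35.9 to 66 at 0.7 M, 103 to 376 at 0.15 M). Their part in the changes of the 8 genes was not tested. Of 16 pathway genes tested, 3 fell in FOXO RNAi at 0.15 M (*Pfrx* −0.44, *Got1* −0.43 and *UGP* −0.32) and 5 at 0.7 M, the largest being *Got2* (−1.17), *Mdh1* (−0.82), *Tret1-1* (−0.75) and *UGP* (−0.61). In the control, 4 rose at 0.7 M: *Pgm* (1.1), CG5177 (a trehalose phosphatase, 0.68), *Tret1-1* (0.43) and *AkhR* (0.42).

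In p53 RNAi and Stat92E RNAi, 0 of the 7 genes were called by limma in the 8 comparisons made with all libraries. For p53 RNAi the share of all genes called was 2.14% at 0.15 M, 12.3% at 0.7 M (4.6% higher and 7.74% lower), 38% for 0.7 M against 0.15 M and 0.278% for the difference between diets. For Stat92E RNAi it was 3.09%, 13.1%, 35.9% and 0.238% in the same order. At 0.7 M those backgrounds moved with single libraries. The 311 genes of p53 RNAi became 122, 612 and 117 without the first, the second and the fourth control, and 198, 151 and 189 without the first, the second and the fourth p53 RNAi library. The 329 genes of Stat92E RNAi became 125, 567 and 124 without those same controls, and 173 and 183 without the first and the third Stat92E RNAi library. An unadjusted p under 0.05 was reached by *Pepck* in p53 RNAi at 0.15 M (0.043), by *Pepck2* and *GlyP* in p53 RNAi at 0.7 M (0.021 and 0.019) and by *Pepck* in Stat92E RNAi at 0.15 M (0.0083), and by 0 genes in the other 5 comparisons.

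*Pepck* had 82.6, 82.5 and 84.1 scaled FPKM in p53 RNAi at 0.15 M and 86.2, 64.2, 64.9 and 96.4 in Stat92E RNAi at 0.15 M, against 100, 166, 99.7 and 104 in control. Each set lay below all 4 controls, with changes of −0.46 ± 0.22 (adjusted p = 0.27) in p53 RNAi and −0.57 ± 0.20 (adjusted p = 0.093) in Stat92E RNAi. At 0.7 M *Pepck* had 80, 53, 77.4 and 80.3 in p53 RNAi and 101, 75.2, 101 and 100 in Stat92E RNAi, against 107, 60.7, 96.4 and 124 in control (−0.39 ± 0.20 and −0.01 ± 0.20).

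*Pepck2* had 10.8, 10.6, 10.8 and 11.2 scaled FPKM in p53 RNAi at 0.7 M, all below the control's 15.2, 11.9, 16.6 and 14.4 (−0.38 ± 0.15, adjusted p = 0.1). *GlyP* had 1.99, 1.26, 2.09 and 2.1 in p53 RNAi at 0.7 M, against 3.21, 1.47, 3.72 and 2.84 in control (−0.38 ± 0.15, adjusted p = 0.098). Without the second-listed libraries 3 genes were called in p53 RNAi at 0.7 M: *Pepck* (−0.45, adjusted p = 0.027), *Pepck2* (−0.46, 0.013) and *GlyP* (−0.47, 0.0048). Over all genes, 740 were called in that fit, 370 higher and 370 lower, against 311 with all libraries. *Pepck*, *Pepck2* and *GlyP* were also called when the second control library alone was left out (−0.60, −0.47 and −0.58, adjusted p 0.028, 0.041 and 0.0037). There 612 of all genes were called. In Stat92E RNAi at 0.7 M *GlyP* had 2.29, 2.0, 1.86 and 2.74 against the same controls (−0.21 ± 0.15), and was called without the second control (−0.40, adjusted p = 0.033) and without the second-listed libraries (−0.37, 0.017). Over all genes, 567 and 836 were called in those fits in turn, against 329 with all libraries. *Tps1* at 0.7 M against 0.15 M in p53 RNAi differed by 0.37 ± 0.19 (adjusted p = 0.14), and by 0.45 without the second-listed libraries (adjusted p = 0.032), where 1186 of all genes were called, against 959 with all libraries. Changes of *fbp*, *AGBE* and *GlyS* between RNAi and control ran from −0.26 to 0.32 over these knockdowns and diets, with no call.

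*Treh* in p53 RNAi had 0.546, 0.532, 0.583 and 0.608 scaled FPKM at 0.7 M, against 0.825, 0.613, 0.92 and 1.19 in control at 0.7 M and 0.966, 0.915 and 1.53 in p53 RNAi at 0.15 M. Neither pair of groups overlapped (exact p = 0.029 each, the smallest possible, or 0.13 adjusted over the 18 tests). Without the filter, limma called the diet difference in p53 RNAi (−0.44 ± 0.10, adjusted p = 0.003) and not that from control (−0.26 ± 0.09, adjusted p = 0.11). The overlapping CG4030 averaged 0.92 ± 0.147 in p53 RNAi at 0.7 M, 0.972 ± 0.11 in control at 0.7 M and 0.826 ± 0.157 in p53 RNAi at 0.15 M. In Stat92E RNAi *Treh* was 0.65 to 0.898 at 0.7 M and 0.999 to 1.21 at 0.15 M, again without overlap (exact p = 0.029, adjusted 0.13; −0.24 ± 0.09, adjusted p = 0.067, by limma without the filter). In control it was 0.613 to 1.19 at 0.7 M and 1.06 to 1.32 at 0.15 M (exact p = 0.11, adjusted 0.2). Of the 16 pathway genes tested, 6 fell in p53 RNAi at 0.7 M, the largest being CG1516 (−0.83) and *Pgi* (−0.73), and 4 fell in Stat92E RNAi at 0.7 M, led by *Pgi* (−0.63) and CG1516 (−0.60). At 0.7 M fat body markers fell for 6 of 8 in p53 RNAi (6730 to 8070 in p53 RNAi, 9440 to 13100 in control) and for 4 of 8 in Stat92E RNAi (7730 to 10400). At 0.7 M 1 of 6 salivary gland genes fell in each knockdown, and at 0.15 M 1 of 8 gut and 1 of 2 hemocyte markers rose in p53 RNAi. At 0.7 M against 0.15 M, muscle markers rose for 6 of 8 in p53 RNAi (39.3 to 60.3 at 0.7 M, 17.8 to 19.3 at 0.15 M) and for 6 of 8 in Stat92E RNAi (40.2 to 69.6 at 0.7 M, 18.1 to 36.3 at 0.15 M). Fat body markers fell for 5 of 8 in p53 RNAi (6730 to 8070 at 0.7 M, 9350 to 11600 at 0.15 M). In Stat92E RNAi 4 of 8 fell and 1 rose (7730 to 10400 at 0.7 M, 12300 to 12700 at 0.15 M). In p53 RNAi 2 of 8 gut markers also rose and 1 of 2 hemocyte markers fell. Their part in these values was not tested.

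**Figure D5:**
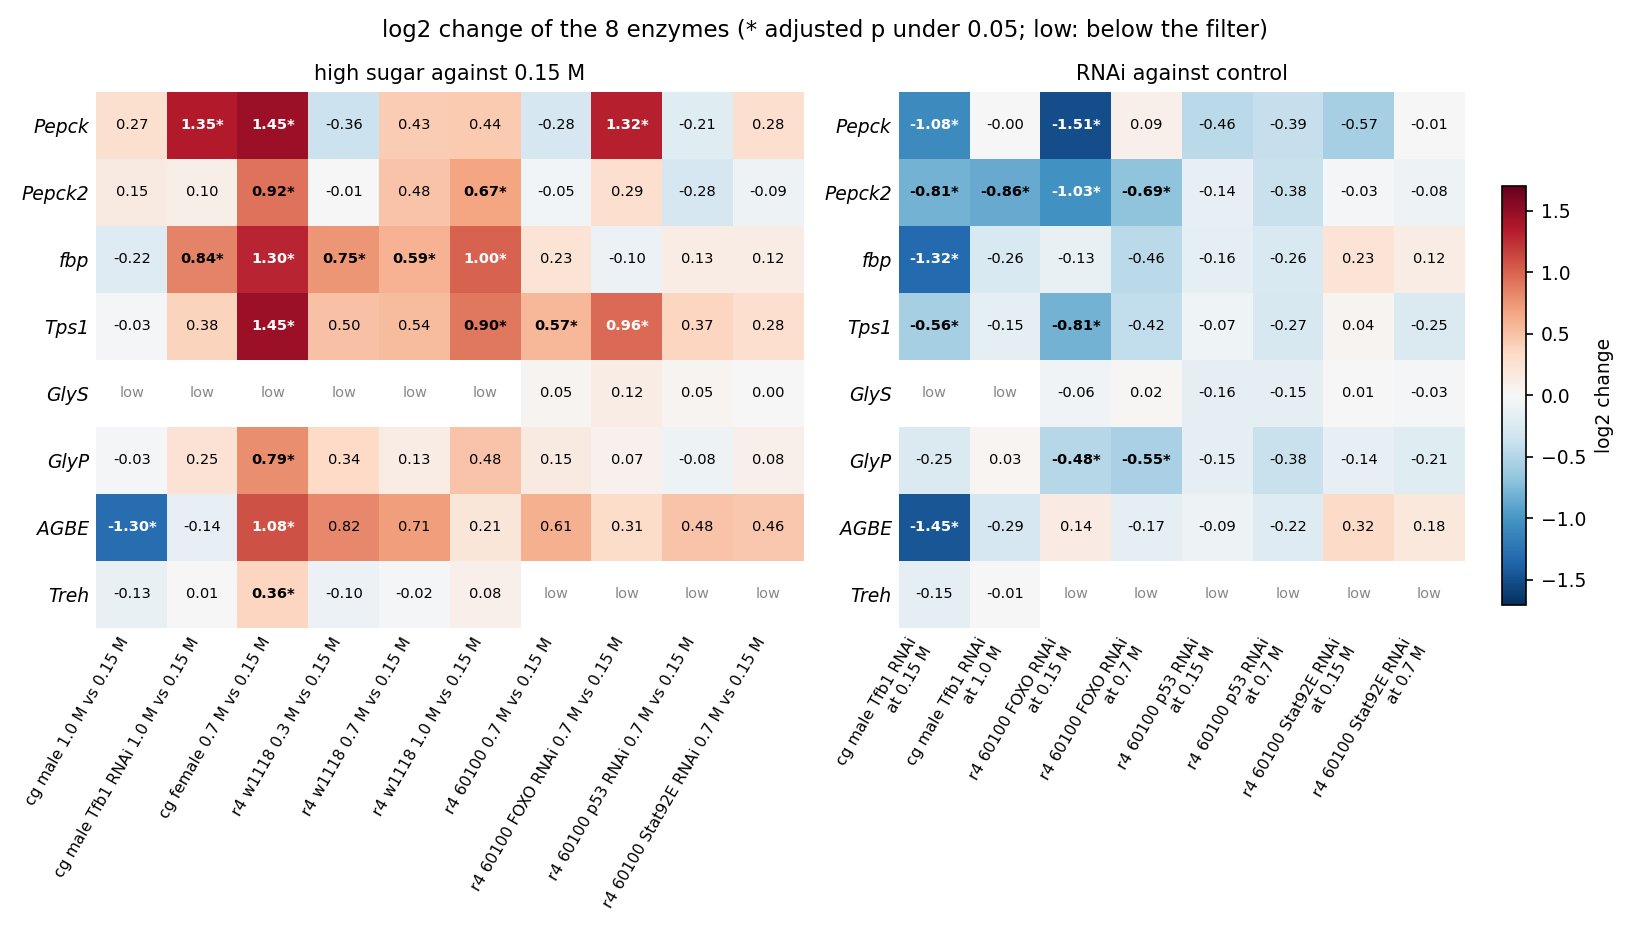
Log2 change of scaled FPKM (colour and printed value) of the 8 enzyme genes in 10 comparisons of high sugar against 0.15 M (left) and 8 of RNAi against control (right); an asterisk marks an adjusted p under 0.05 and "low" a gene below the filter. Calls against control on the right are all decreases and lie in Tfb1 RNAi and FOXO RNAi, and calls on the left are all increases except that of *AGBE* in control males. Where called, *AGBE* and *Treh* had passed the filter only through their highest group. Over all genes, 2.14% to 39.7% were called in the comparisons shown.

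Over the 23 comparisons, *fbp* was called higher in 6 and lower in 1, *Pepck* higher in 5 and lower in 2, *Tps1* higher in 5 and lower in 2, and *Pepck2* higher in 3 and lower in 4. *AGBE* was called higher in 2 and lower in 2, *GlyP* higher in 1 and lower in 2, and *Treh* higher in 1 of the 10 in which it was tested. All 4 calls of *AGBE* and the call of *Treh* come from cg males or cg females, where each passed the filter only through its highest group, so that a difference was built into their being tested in these 5. *GlyS* was called in 0 of the 13 in which limma tested it, and 0 of its 8 exact tests elsewhere could pass 0.05; its call without the filter in Tfb1 RNAi is given above. The counts of higher calls include positive differences of an RNAi effect between diets, which are not higher levels. Those are the differences of *Pepck* in Tfb1 RNAi and FOXO RNAi and of *fbp* and *AGBE* in Tfb1 RNAi. Positive slopes on sucrose, of *Pepck2* and *Tps1*, are counted as well. These counts combine comparisons that share libraries. The share of all genes called ran from 0.238% to 39.7% over the 23 comparisons.

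The members were also set beside each other over all 61 libraries, after the mean of each experiment had been subtracted from the log2 values. These correlations describe libraries that share diet, genotype and scaling within an experiment. The closest pairs were *Tps1* with *GlyP* (Pearson r 0.73) and *Tps1* with *Pepck*, *Pepck2* and *fbp* (0.71 each). *Treh* stood apart from *AGBE* (−0.04), *GlyS* (0.14) and *Tps1* (0.20), and the paralogues *Pepck* and *Pepck2* reached 0.64; reads shared between those 2 genes were not assessed here. *GlyS* was closest to *AGBE* (0.65) and reached 0.22 with *GlyP*.

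Among 1546 other genes that reached a mean of 1 in every experiment, the closest to *Pepck* were *l(2)k09913* (r 0.75), *aay* (0.74) and CG1516 (0.69). The gene *l(2)k09913* was also among the closest 3 to *Tps1* (0.84, with CG18135 at 0.84 and CG11334 at 0.82) and to *GlyP* (0.78, with *Aldolase* at 0.79 and CG8036 at 0.78). *Pepck2* was closest to CG2107 (0.77), CG7920 (0.76) and CG14291 (0.75), and *fbp* to *Jheh1* (0.83), *Cyt-b5-r* (0.80) and *Odc2* (0.79). *AGBE* was closest to *Ance-4* (0.85), CG1907 (0.84) and CG13360 (0.84). *GlyS* shared CG13360 (0.68) and was otherwise closest to *sut1* (0.64) and *Idgf4* (0.62), and *Treh* was closest to CG16743 (0.82), CG17271 (0.80) and *Tudor-SN* (0.78).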

How the data were processed

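Fat body RNA-seq of 62 labelled samples was deposited as 1 table of FPKM with 61 columns. The authors made these FPKM values with TopHat 1.3.2, Bowtie 0.12.7 and Cufflinks 1.1.0 on the dm3 genome, per the submitters' processing notes. The deposited FPKM had also been scaled to a fixed rank (2080, 2117, 2649 and 2464 or 2465 genes at 1 or more per library of cg females, r4 w1118 females, cg males and r4 60100 females) although no label records that step. Levels are thus relative, and depth is an estimate taken from the smallest products of FPKM and transcript length. Of the columns, 18 were matched to samples by title and 43 to a group only, where library numbers follow column order and are only names.

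Each experiment was fitted alone with limma 3.58.1 in R 4.3.3 on log2(scaled FPKM + 1) for genes with a mean of at least 1, with a mean per group and a variance trend. A trend on sucrose was fitted over 4 diets. Genes below the filter had exact two-sided permutation tests of library labels. The fit was tested on simulated data: for cg females (2131 genes) 72% of 100 genes changed by a log2 of 1 and 76% of 100 changed by 2 were recovered, and for the r4 60100 control (2521 genes) 86% and 95%. Of the genes called in the simulation, 3.9% in cg females and 4.74% in the r4 60100 control were unchanged ones. No other genes were changed, whereas 39.7% of genes were called in the cg female data. The simulated noise was drawn independently for each gene, with no effect shared by a library. These rates therefore do not cover libraries that stand apart, such as the second-listed ones.

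All 8 members are named in every comparison. Of 26 further pathway genes up to 4 called ones are named in order of absolute change. Marker lists cover fat body, muscle, gut, hemocyte, salivary gland and neuron (1 neuron marker tested in each experiment, called, as lower, in FOXO RNAi at 0.15 M and at 0.7 M and in no other comparison). The members and lists were chosen with earlier results of these data known. Likeness is the Pearson r over 61 libraries. Replicate numbers from the labels could be matched to columns only in cg females and r4 w1118 females. Same-numbered libraries' deviations correlated at −0.0746, −0.0409 and 0.0884 in cg females and −0.202 to 0.373 in r4 w1118 females. With 3 libraries a group, these values cannot decide whether the numbers pair the samples, and the main fit used no block. Alternatives were a pseudocount of 0.1, no filter, rescaling by median ratios, the replicate block, leaving out each library and, added later, leaving out the second-listed libraries. Sequences and coordinates were not used here; chromosome arms and overlapping genes come from the RefSeq gene table of Release 6, matched by CG number, while the expression table rests on dm3.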

Additional observations from a re-analysis of the deposited data

Results flagged for a closer look

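In r4 60100 females, 9 values lay far from the other libraries of their group, by a gap that chance gives in about 1 in 20 groups, among 56 groups examined. All 9 belong to the library listed second in its group. They are *Pepck* at 53 scaled FPKM in p53 RNAi at 0.7 M, 75.2 in Stat92E RNAi at 0.7 M and 166 in control at 0.15 M. *Pepck2* was at 5.38 in FOXO RNAi at 0.7 M, and *Tps1* at 8.97 in FOXO RNAi at 0.7 M and 8.23 in Stat92E RNAi at 0.15 M. *GlyP* was at 1.26 in p53 RNAi at 0.7 M, *AGBE* at 4.18 in FOXO RNAi at 0.15 M and *Treh* at 1.32 in control at 0.15 M. The control values of *Pepck* and *Treh* were the highest of their groups and the other 7 the lowest.

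The effect of a knockdown differed between diets, by the test of the difference itself, in 4 cases. For Tfb1 RNAi the differences were 1.08 for *Pepck*, 1.06 for *fbp* and 1.16 for *AGBE*, and for FOXO RNAi 1.60 for *Pepck*, all on the log2 scale and all more positive at high sugar. *AGBE* passed the filter in males only through the 0.15 M control libraries, which enter that difference, so that a difference was built into its being tested. All 3 Tfb1 RNAi calls were lost without the filter (adjusted p 0.088, 0.061 and 0.068), and that of *Pepck* in FOXO RNAi was kept.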

How the results depend on the processing

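No called change of the 8 genes reversed its direction in any alternative, and 46 of the 125 uncalled ones changed sign under 1 or more alternatives (all at most 0.28 in absolute value). Values near 1 rest on few fragments, which limits *GlyS*, *Treh* and, in males, *AGBE*. Counts of called genes among the 8 moved by over 1.5 times as follows. Without the filter, where all 8 enter, they were 0 in Tfb1 RNAi at 1.0 M (1 as reported), 0 in the Tfb1 difference between diets (3), 1 on the w1118 trend (2) and 1 in p53 RNAi at 0.7 M against 0.15 M (0), which is *Treh*. Genes otherwise below the filter that were called there are *GlyS* in Tfb1 RNAi at 0.15 M and *Treh* in FOXO RNAi on both diets and in that p53 RNAi comparison, all lower. Rescaling gave 2 in w1118 at 0.7 M (1) and 2 in the r4 60100 control (1). Leaving out the second-listed libraries gave 3 in that control (1), 3 in p53 RNAi at 0.7 M (0), 1 in p53 RNAi at 0.7 M against 0.15 M (0) and 1 in Stat92E RNAi at 0.7 M (0). In the same order, 764, 740, 1186 and 836 of all genes were called there (784, 311, 959 and 329 as reported). The cause was not tested.

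Leaving out 1 library gave 0 to 1 genes in control males and in Tfb1 RNAi at 1.0 M, 2 to 5 in Tfb1 RNAi at 0.15 M and 0 to 3 in the Tfb1 difference between diets. In w1118 it gave 0 to 2 at 0.3 M, 0 to 1 at 0.7 M, 2 to 4 at 1.0 M and 1 to 3 on the trend. In r4 60100 females it gave 0 to 2 in control, 3 to 4 in FOXO RNAi at 0.15 M, 1 to 4 at 0.7 M and 2 to 3 for 0.7 M against 0.15 M, 0 to 3 in p53 RNAi at 0.7 M and 0 to 1 in Stat92E RNAi at 0.7 M. In cg females it gave 5 to 7. The replicate block gave 6 genes in cg females, with the call of *Treh* lost (adjusted p = 0.062), and changed no other call of the 8 genes. Whether the replicate numbers pair the samples could not be decided. *Pepck2* in cg females was also lost without the filter (adjusted p = 0.075), as was *Tps1* on the w1118 trend (0.072).

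Counts over all genes also moved by over 1.5 times with single libraries. In cg females 847 became 527 without the second 0.15 M library. In males 763 in the control became 495 without the first 0.15 M library, 380 in Tfb1 RNAi between diets became 243 and 249 without its first 0.15 M and second 1.0 M library, and 227 for the Tfb1 difference became 147, 137 and 427 without its first, second and the third 1.0 M library. In w1118, 311 at 0.7 M became 113 to 231 and 375 at 1.0 M became 216 and 218 without the first 0.15 M and the first 1.0 M library. In r4 60100 females, 784 in the control became 514 and 513 without its second and the third 0.7 M library. For FOXO RNAi 436 at 0.15 M became 288 without the fourth FOXO RNAi library, and 344 for the difference ranged from 217 to 618. At 0.15 M 54 in p53 RNAi ranged from 12 to 63 and 78 in Stat92E RNAi from 10 to 90.

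Counts over all genes without the filter were 1390 in cg females (847 as reported), 495, 827 and 854 in w1118 at 0.3, 0.7 and 1.0 M (168, 311 and 375) and 2522 in the r4 60100 control (784). For FOXO RNAi they were 858 at 0.15 M (436), 1200 at 0.7 M (675), 2419 between its diets (972) and 698 for the difference between diets (344). For p53 RNAi they were 108 at 0.15 M (54) and 2314 between its diets (959), and for Stat92E RNAi 587 (78), 1637 (904) and 14 for the difference (6). Without the second-listed libraries they were 790 in FOXO RNAi at 0.15 M (436), 276, 740 and 21 in p53 RNAi at 0.15 M, 0.7 M and their difference (54, 311 and 7) and 503, 836 and 68 in Stat92E RNAi (78, 329 and 6). A pseudocount of 0.1 gave 4 in the p53 difference (7). Rescaling shifted the median of all genes by 0.10 to 0.11 in the r4 60100 diet comparisons of control, FOXO RNAi and p53 RNAi. The share of called genes that were higher went to 76.8% (60.1% as reported) in the control, 54.4% (38.1%), 51.9% (36.4%), 64.6% (46.4%) and 56.3% (44.8%) in FOXO RNAi at 0.15 M, at 0.7 M, between diets and for the difference, 70.7% (51.9%) and 69.5% (55.6%) in p53 RNAi at 0.15 M and between diets, and 66.2% (47.4%) in Stat92E RNAi at 0.15 M.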
